A study of Homo sapiens with 6 samples.

Results

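The 10 genes described here belong to the transforming growth factor beta (TGF-beta) pathway: the ligands TGFB1 and TGFB2, the latency protein LTBP1, the receptors TGFBR1 and TGFBR2, the signal carrier SMAD3, the inhibitors SMAD7, SKIL and PMEPA1, and the target TGFBI. They were chosen by symbol, with earlier results of these data known. Each matched exactly 1 row, and they are 10 of 35544 loci in the deposited expression table. The cells were SiHa, an established human cervical carcinoma line that carries papillomavirus sequence. In 3 libraries the cells had been transfected with a plasmid encoding circular RNA hsa_circ_0005358, named circ_0005358 below, and in 3 libraries with vector plasmid. All cells were harvested 72 h after transfection and polyA RNA was sequenced, so the comparison asks which mRNAs differ when the circular RNA plasmid is supplied. The labels spell the circular RNA's name in several ways, taken here to mean the same RNA, and its own level was not analysed here. Nothing in the labels says that the numbered libraries are separate cultures, so every p-value below reflects library-to-library spread, which may be technical.

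In this pathway, TGF-beta is secreted in a latent complex with binding proteins such as LTBP1, and integrins, thrombospondin or proteases release it. The free ligand binds TGFBR2, which activates TGFBR1. The activated receptor phosphorylates SMAD2 and SMAD3, which join SMAD4 and switch target genes on or off in the nucleus. Several targets, among them SMAD7, SKIL and PMEPA1, encode inhibitors that dampen the same pathway. In epithelial cells TGF-beta is known for growth arrest and, in carcinomas, for loss of epithelial character.

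Expression is given as FPKM (fragments per kilobase of transcript, scaled to library size), a unit that allows levels of different genes to be set side by side. The table holds no read counts. The step that 1 fragment makes in loci with 1 transcript put circ_0005358 replicates 1 to 3 at 93.3%, 70.8% and 97.7% of the depth of the deepest library, vector replicate 2, and vector replicates 1 and 3 at 97.7% and 98.9%. Vector replicate 3 stood apart with 27803 loci above 0, against 23227 to 23834 in the other 5 libraries, and results are therefore also given without it where it decides them. Of 12 epithelial markers, 9 had a row of their own and 7 of these were at 1 FPKM or more in every library. The squamous regulator TP63 was near 0, at 0.114 to 0.169 FPKM with circ_0005358 and 0.147 to 0.254 FPKM with vector. The 9 epithelial markers with a row of their own summed to 637 to 726 FPKM with circ_0005358 and to 1325 to 1400.4 FPKM with vector. In the test given below, 7 of these 9 were called lower with circ_0005358 and 0 higher. Among those called, KRT17 averaged 205 FPKM with circ_0005358 and 625 FPKM with vector, and CDH1 0.958 and 13.8 FPKM. All 7 stromal markers had a row of their own and summed to 2.67 to 3.15 FPKM with circ_0005358 and 7.10 to 10.7 FPKM with vector. The stromal proteoglycan gene LUM alone was at 1.69, 1.11 and 1.49 FPKM with circ_0005358 and at 6.35, 6.85 and 9.21 FPKM with vector, and it was the only stromal marker that passed the filter. The 6 others summed to 1.46, 1.56 and 1.58 FPKM with circ_0005358 and to 0.751, 0.672 and 1.48 FPKM with vector, so without LUM the direction of the stromal sum turned and the groups overlapped. Of these 6, COL3A1, DCN and PDGFRB were higher in every circ_0005358 library than in any vector library, at means of 0.821, 0.205 and 0.225 FPKM with circ_0005358 and 0.109, 0.156 and 0.0949 FPKM with vector. COL1A1 had the opposite order, at means of 0.251 FPKM with circ_0005358 and 0.531 FPKM with vector. No marker of any list was at 0 in all libraries. The 5 leukocyte and 4 endothelial markers with a row of their own summed to less than 1 FPKM in every library. The part of these marker differences in the results was not tested. In RNA from a whole culture, fewer cells that express a gene and less RNA per cell cannot be told apart.

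Of the 10 genes, 2 were higher and 4 were lower with circ_0005358 than with vector, and 4 did not pass the test (limma on log2(FPKM + 1), Benjamini-Hochberg adjustment over all 10295 tested loci, threshold 0.05). Over all tested loci 11.4% were called, 6.41% higher and 4.96% lower. In 6 of the 10 genes the 2 groups of libraries did not overlap, which was so for 35.8% of all tested loci. The ligand TGFB1 and the signal carrier SMAD3 rose, and LTBP1, SKIL, PMEPA1 and TGFBI fell. The median log2 fold change of the 10 genes was -0.56, against 0.02 for all tested loci. After scaling all libraries to 1 common FPKM sum, 1 gene was called higher and 4 lower, since SMAD3 no longer passed, and the calls over all tested loci were 538 higher and 574 lower, against 660 higher and 511 lower without that scaling. All 10 genes passed the filter of 1 FPKM in at least 3 libraries, but LTBP1 passed only through the vector libraries, where it is high, so the filter itself required it to differ.

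**Figure D1:**
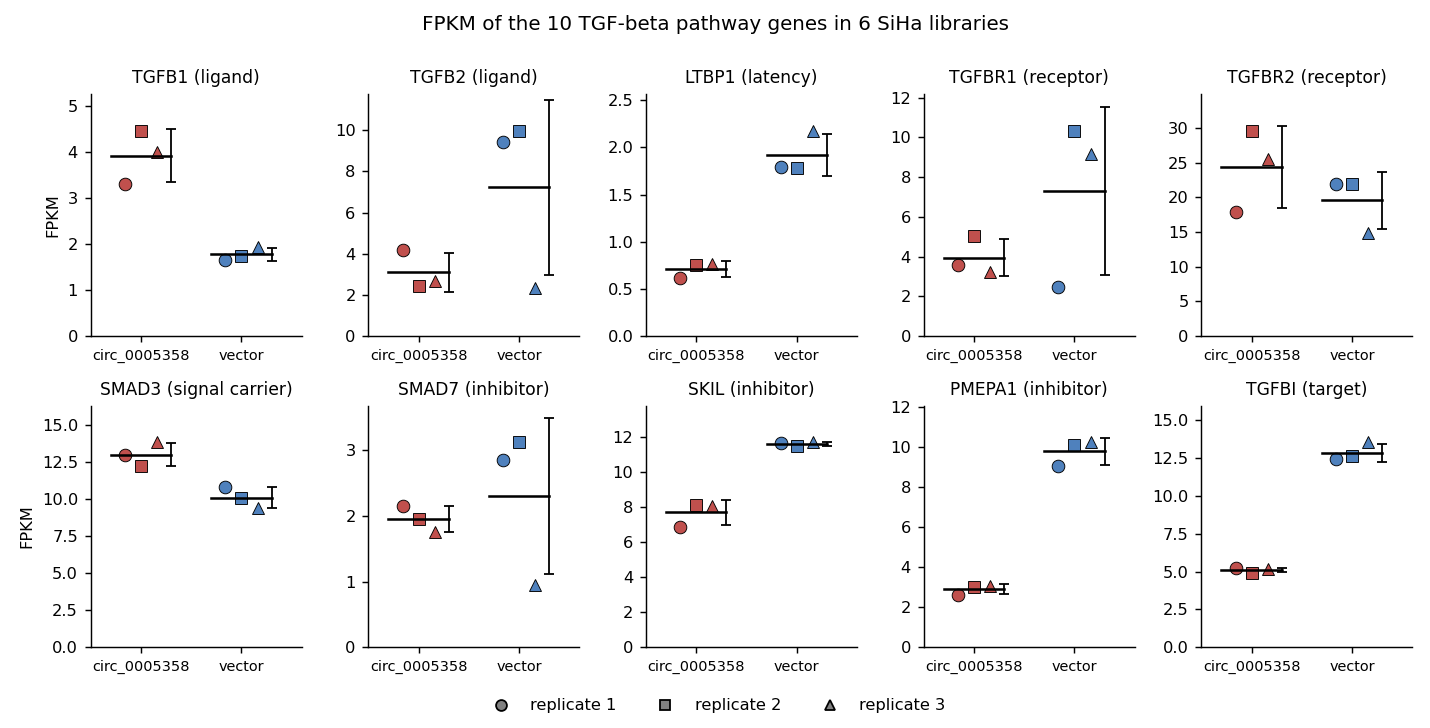
FPKM of the 10 genes in each library; every panel shows 1 gene with the 3 circ_0005358 libraries on the left and the 3 vector libraries on the right, symbols mark the replicate number, horizontal lines the group mean and bars the SD (n = 3). The groups are separate for TGFB1, LTBP1, SMAD3, SKIL, PMEPA1 and TGFBI, and overlap for TGFB2, TGFBR1, TGFBR2 and SMAD7.

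The order of the levels differed between the groups. With circ_0005358 it ran TGFBR2, SMAD3, SKIL, TGFBI, TGFBR1, TGFB1, TGFB2, PMEPA1, SMAD7 and LTBP1, with group means of 24.3 FPKM at the top and 0.710 FPKM at the bottom. The libraries of neighbours overlapped from TGFBI down to PMEPA1, and the other neighbours were separate. With vector the order was TGFBR2, TGFBI, SKIL, SMAD3, PMEPA1, TGFBR1, TGFB2, SMAD7, LTBP1 and TGFB1, with group means of 19.5 FPKM at the top and 1.77 FPKM at the bottom. There the first 4 were separate from each other, and all neighbours from SMAD3 downwards overlapped. PMEPA1 thus had rank 8 with circ_0005358 and rank 5 with vector, and TGFB1 rank 6 with circ_0005358 and rank 10 with vector.

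Promoter sequence is shown for TGFB1, which was higher, and for SKIL, PMEPA1 and TGFBI, which were lower, as examples of the sequence at genes of this pathway that were called. Each stretch is the 150 bases upstream of a RefSeq start (GRCh38.p14) that lie nearest to it and hold no GENCODE 29 exon. Capitals mark the short SMAD box GTCT or, on the other strand, AGAC. The deposited table has no coordinates and the submitters' processing notes name another build, hg19, so these positions come from the reference alone.
TGFB1 (chr19:41353923-41354072, minus strand): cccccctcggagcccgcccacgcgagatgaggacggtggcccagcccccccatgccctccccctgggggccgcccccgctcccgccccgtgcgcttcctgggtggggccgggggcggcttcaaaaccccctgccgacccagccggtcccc
SKIL (chr3:170357528-170357677, plus strand): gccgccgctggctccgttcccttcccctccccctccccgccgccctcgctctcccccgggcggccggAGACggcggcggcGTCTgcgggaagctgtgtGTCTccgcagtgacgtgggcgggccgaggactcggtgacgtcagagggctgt
PMEPA1 (chr20:57710016-57710165, minus strand): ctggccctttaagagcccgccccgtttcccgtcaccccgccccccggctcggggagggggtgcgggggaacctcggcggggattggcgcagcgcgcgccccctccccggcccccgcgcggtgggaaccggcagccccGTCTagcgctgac
TGFBI (chr5:136028745-136028894, plus strand): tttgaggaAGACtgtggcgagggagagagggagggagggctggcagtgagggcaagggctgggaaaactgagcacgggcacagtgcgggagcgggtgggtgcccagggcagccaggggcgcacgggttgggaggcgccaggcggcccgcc
The TGFB1, SKIL and TGFBI stretches lie upstream of the annotated gene, and the PMEPA1 stretch lies within the annotated gene, outside its exons and just before the RefSeq start. The short box occurred 3 times in the SKIL stretch, 1 time each in those of PMEPA1 and TGFBI, and 0 times in that of TGFB1. Of 35116 promoters in the RefSeq table, 57.3% hold it in the 150 bases directly before the start, exon bases included, so its presence there is common. All shares given here are for that fixed window. The SKIL and TGFBI stretches avoid exons and lie 187 to 38 and 243 to 94 bases before the start, so the shares do not match them exactly. The TGFBI box, at the far end of its stretch, lies outside the fixed window. The longer CAGA box (CAGACA or TGTCTG, which holds the short box whole) is held by 7.85% of all promoters, and the palindrome of 2 short boxes (GTCTAGAC, the same on both strands) by 0.0883%. Neither occurred in the 4 stretches. The GC-rich SMAD motif GGCGC, or GCGCC on the other strand, is held by 37.5% of all promoters. Counted on each strand, it matched 2 times in the PMEPA1 and 3 times in the TGFBI stretch, and 0 times in those of TGFB1 and SKIL. In the TGFBI stretch the letters ggcgcc match on both strands and were counted for each, so its separate sites are fewer than its matches. The matching stretch of SMAD3, the other gene called higher, held this motif 5 times by the same count and the short box 0 times. LTBP1, also called lower, had no stretch free of exon bases and was not examined. The GC-rich motif thus did not sort the called genes by direction. Among called genes with a stretch, the short box was present in each called lower and absent from those called higher. The receptors, which did not pass the test, had the opposite arrangement. The TGFBR2 stretch held the box 1 time (log2 fold change 0.29) and the TGFBR1 stretch 0 times (log2 fold change -0.59). With so few stretches and so common a box, this split was not tested. Such matches describe letters and say nothing about binding.

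Among the ligands, TGFB1 was at 3.31, 4.45 and 3.99 FPKM with circ_0005358 and at 1.65, 1.74 and 1.92 FPKM with vector. Every circ_0005358 library was above every vector library. TGFB1, the most widely expressed TGF-beta, rose to 3.91 ± 0.573 FPKM with circ_0005358, against 1.77 ± 0.139 FPKM with vector (SD, n = 3 each), a ratio of 2.21. Its log2 fold change was 0.82 (standard error 0.11, limma adjusted p = 0.00906), while an exact permutation of the 6 libraries (two-sided) had p = 0.1, the smallest that 3 against 3 allow. TGFB1 (ENSG00000105329) spans chr19:41301587-41353911 (GRCh38, minus strand), where 4 genes on the other strand overlap it. No source states that fragments were counted by strand, so fragments of overlapping genes cannot be told apart. Of these 4, CCDC97 stood at 5.92, 3.51 and 3.40 FPKM with circ_0005358 and at 11.6, 11.5 and 5.82 FPKM with vector, with vector replicate 3 just under circ_0005358 replicate 1. HNRNPUL1 stood at 27.6, 31.6 and 30.7 FPKM with circ_0005358 and at 26.9, 28.9 and 32.9 FPKM with vector, and its groups overlapped. The other two, TMEM91 and AC011462.1, share a row joined with BCKDHA, at 5.20 to 5.76 FPKM with circ_0005358 and 4.75 to 4.94 FPKM with vector.

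TGFB2, the ligand best known from development, was at 4.17, 2.44 and 2.67 FPKM with circ_0005358 and at 9.41, 9.96 and 2.32 FPKM with vector. Vector replicates 1 and 2 were above every circ_0005358 library, and vector replicate 3 was below all of them. Its log2 fold change was -0.84, with a 95% interval from -2.11 to 0.42 (limma adjusted p = 0.352, exact permutation p = 0.4), so TGFB2 did not pass. Without vector replicate 3 the log2 fold change was -1.41 and passed (adjusted p = 0.0344). That single library therefore decides the call. TGFB3, the remaining TGF-beta, was below 1 FPKM in every library, at 0.439 to 0.655 FPKM with circ_0005358 and 0.309 to 0.704 FPKM with vector.

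The make-up of the ligand transcripts can be read per library, since FPKM is per length. TGFB1 was 41.8%, 59.4% and 54.5% of the summed FPKM of TGFB1, TGFB2 and TGFB3 with circ_0005358, against 14.4%, 14.5% and 38.9% with vector. The share was higher in each circ_0005358 library than in any vector library, by a small gap from vector replicate 3. The sum itself was 7.91, 7.48 and 7.31 FPKM with circ_0005358 and 11.4, 12.003 and 4.95 FPKM with vector, and the groups overlapped, with vector replicate 3 the lowest library. These shares describe the libraries and were not tested.

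**Figure D2:**
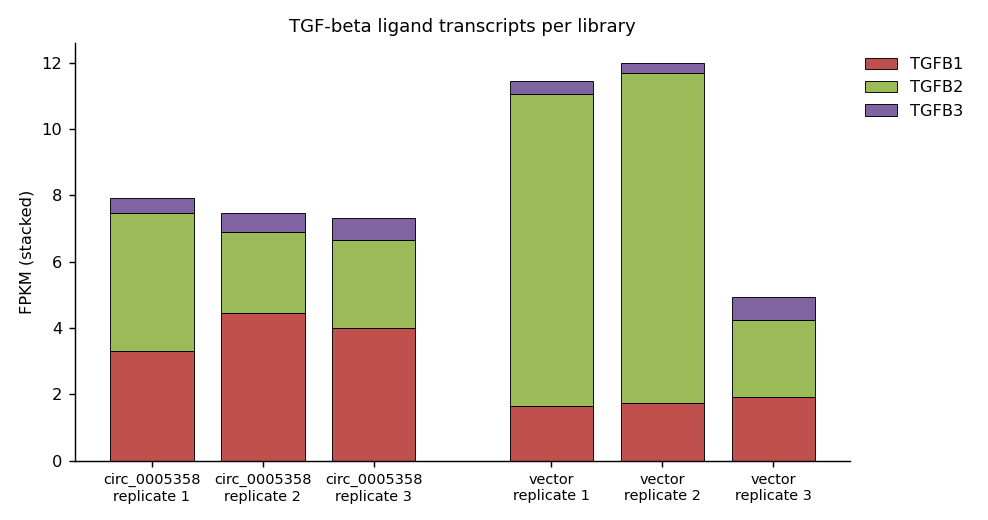
Stacked FPKM of TGFB1, TGFB2 and TGFB3 in each library, the 3 circ_0005358 libraries on the left and the 3 vector libraries on the right. TGFB2 makes up most of the bar in vector replicates 1 and 2 and, by less, in circ_0005358 replicate 1 (4.17 of 7.91 FPKM). Vector replicate 3 has the shortest bar, 4.95 FPKM.

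LTBP1, which holds latent TGF-beta in the matrix, was at 0.615, 0.751 and 0.765 FPKM with circ_0005358 and at 1.79, 1.78 and 2.17 FPKM with vector. All circ_0005358 libraries lay below 1 FPKM and all vector libraries above it. The means were 0.710 ± 0.0828 and 1.91 ± 0.222 FPKM (circ_0005358 and vector, SD, n = 3 each), a ratio of 0.371. The log2 fold change was -0.77 (standard error 0.083, limma adjusted p = 0.00534), and with no filter on low values the adjusted p was 0.0231. Because these values are low, the log2(FPKM + 1) scale understates the change, and at a pseudocount of 0.1 the log2 fold change was -1.31.

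Neither receptor passed the test. TGFBR1, the signalling receptor kinase, was at 3.59, 5.02 and 3.24 FPKM with circ_0005358 and at 2.47, 10.3 and 9.14 FPKM with vector. Vector replicate 1 was below every other library, and vector replicates 2 and 3 were above every other library. On the log2 scale the difference was -0.59, with a 95% interval from -1.797 to 0.62 (limma adjusted p = 0.5, exact permutation p = 0.4). Without vector replicate 1 it was -1.13 and passed (adjusted p = 0.0433). TGFBR2, which binds the ligand first, was at 17.9, 29.5 and 25.5 FPKM with circ_0005358 and at 22.0, 21.9 and 14.8 FPKM with vector. The groups overlapped, and the log2 fold change was 0.29 with a 95% interval from -0.29 to 0.88 (limma adjusted p = 0.486, exact permutation p = 0.4). TGFBR2 was the most abundant of the 10 genes in both groups. The ratio of TGFBR2 to TGFBR1 was 4.99, 5.88 and 7.88 with circ_0005358 and 8.90, 2.12 and 1.62 with vector.

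SMAD3, the transcription factor that carries the signal to the nucleus, was at 12.9, 12.2 and 13.8 FPKM with circ_0005358 and at 10.8, 10.1 and 9.36 FPKM with vector. The groups did not overlap, but the difference was small, with a ratio of 1.29. The log2 fold change was 0.34 (standard error 0.076) and passed narrowly (limma adjusted p = 0.048, exact permutation p = 0.1). The call was lost when any 1 of the 6 libraries was left out, with adjusted p between 0.0717 and 0.14, and also under both other scalings.

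Of the 3 inhibitors, PMEPA1 and SKIL fell and SMAD7 did not pass. PMEPA1, a membrane protein that withholds receptor-activated SMADs, was at 2.61, 3.003 and 3.08 FPKM with circ_0005358 and at 9.05, 10.1 and 10.3 FPKM with vector. The lowest vector library was well above the highest circ_0005358 library. The log2 fold change was -1.47 (standard error 0.081, limma adjusted p = 0.000755), and it ranked 71st from the most negative of 10295 tested loci. The call held in all 17 alternatives, with adjusted p from 0.000553 to 0.0398, though summed rows repeat the main fit for a gene with a single row. PMEPA1 (ENSG00000124225) spans chr20:57648392-57711536 (GRCh38, minus strand). The long noncoding NKILA overlaps it on the other strand, at 0.393, 0.363 and 0.446 FPKM with circ_0005358 and at 0.925, 0 and 0 FPKM with vector.

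SKIL, a SMAD corepressor also called SnoN, was at 6.90, 8.13 and 8.08 FPKM with circ_0005358 and at 11.7, 11.5 and 11.7 FPKM with vector. The vector libraries differed by little, with a coefficient of variation of 1.07%, and lay above all circ_0005358 libraries. SKIL fell by 0.54 on the log2 scale (standard error 0.075, limma adjusted p = 0.0116). It no longer passed without vector replicate 1 (adjusted p = 0.0524) and without vector replicate 2 (adjusted p = 0.0521), with nearly the same fold change of -0.54 and -0.55.

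SMAD7, the inhibitory SMAD that blocks the activated receptor, was at 2.15, 1.95 and 1.75 FPKM with circ_0005358 and at 2.86, 3.12 and 0.941 FPKM with vector. Vector replicates 1 and 2 were above every circ_0005358 library and vector replicate 3 was below all of them, the same arrangement as for TGFB2. Its log2 fold change was -0.09, with a 95% interval from -0.85 to 0.67 (limma adjusted p = 0.877, exact permutation p = 1). Without vector replicate 3 it was -0.44 and did not pass (adjusted p = 0.0739). Its fold change was thus not resolved at this spread.

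TGFBI, a secreted matrix protein named for its induction by TGF-beta, was at 5.25, 4.93 and 5.15 FPKM with circ_0005358 and at 12.4, 12.6 and 13.5 FPKM with vector. The groups were far apart and tight, with coefficients of variation of 3.10% with circ_0005358 and 4.68% with vector. Its log2 fold change was -1.18 (standard error 0.059, limma adjusted p = 0.000558). The call held in all 17 alternatives, among them summed rows, which repeat the main fit here, with log2 fold changes between -1.31 and -1.12. TGFBI (ENSG00000120708) spans chr5:136028895-136063818 (GRCh38, plus strand), and no annotated gene overlaps it.

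**Figure D3:**
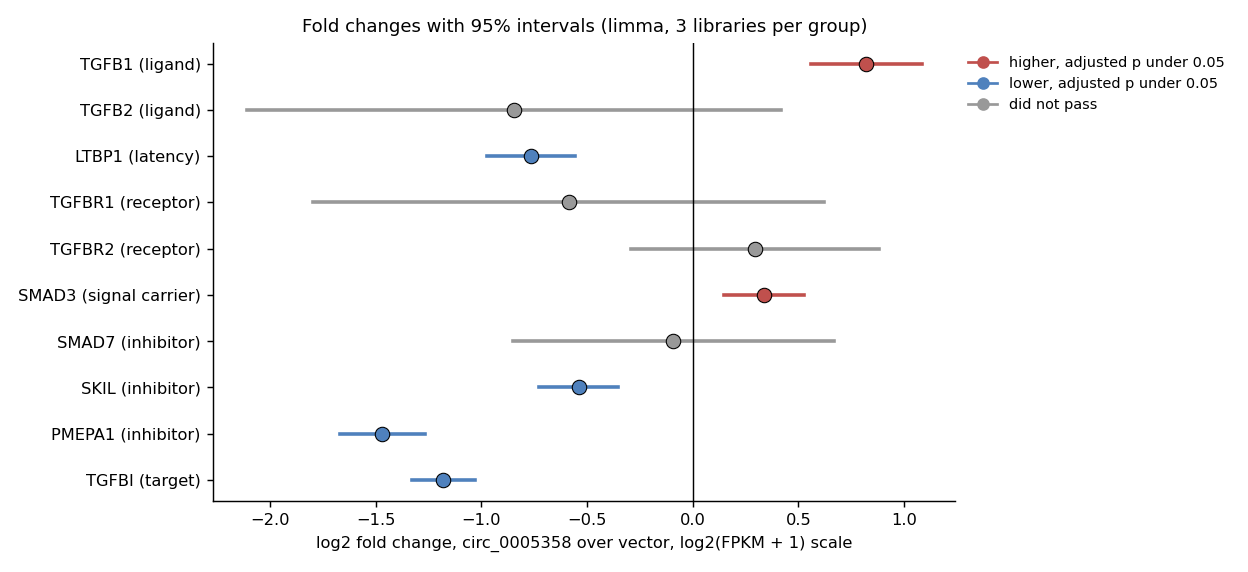
Log2 fold change of the 10 genes, circ_0005358 over vector, on the log2(FPKM + 1) scale, with limma's 95% interval as a horizontal line; red points passed the threshold as higher, blue points as lower and grey points did not pass. The intervals of TGFB2, TGFBR1, TGFBR2 and SMAD7 include 0, and those of TGFB2 and TGFBR1 are the widest of the 10.

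In the vector libraries the 4 genes that did not pass were the most variable of the 10. The coefficient of variation there was 58.96% for TGFB2, 57.9% for TGFBR1 and 51.6% for SMAD7. The median over all tested loci in those libraries was 9.01% and the 90th percentile 41.3%. In the circ_0005358 libraries the same 3 genes were at 30.3%, 23.9% and 10.2%, against a median of 9.86% over all tested loci. TGFBR2 was at 24.3% with circ_0005358 and 21.0% with vector. The low library was vector replicate 3 for TGFB2 and SMAD7 and vector replicate 1 for TGFBR1.

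The other genes of the pathway came from a list of 83 symbols, of which 82 had a row (CCN2 is a newer name of CTGF and was not counted again) and 54 were tested. Of these 54, 8 rose and 7 fell, next to 6.41% higher and 4.96% lower over all tested loci. The 8 include ADAM12 and MMP2, which passed the filter only through the circ_0005358 libraries and so add no support to this count. With the libraries scaled to 1 common FPKM sum, 7 rose and 9 fell. The list's median log2 fold change was -0.06, against 0.02 for all tested loci. The called genes are given by role, and each count by role is to be read beside the same 6.41% higher and 4.96% lower. The counts by role are small and were not tested against these shares.

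Among genes of latency and activation, 1 of 8 tested rose and 1 fell. THBS1, the matrix glycoprotein thrombospondin that releases latent TGF-beta, was at 49.0, 49.0 and 50.3 FPKM with circ_0005358 and at 14.5, 14.9 and 15.5 FPKM with vector. Its log2 fold change of 1.66 was the largest of the tested list genes (limma adjusted p = 0.000151), and the groups were far apart. MMP14, a membrane protease, fell by 0.38 on the log2 scale (adjusted p = 0.0292), to 28.7 FPKM with circ_0005358, against 37.7 FPKM with vector. This call was lost when any 1 library was left out, with adjusted p between 0.0652 and 0.0861. ITGAV, the integrin chain that binds the latent complex, averaged 37.8 FPKM with circ_0005358 and 45.3 FPKM with vector (adjusted p = 0.557). Its circ_0005358 replicate 2 stood at 20.7 FPKM, while the other 5 libraries lay between 44.3 and 46.6 FPKM. FURIN, the protease that cuts the ligand precursor, averaged 17.7 FPKM with circ_0005358 and 20.4 FPKM with vector (adjusted p = 0.58).

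Of 4 other receptors tested, 1 rose. ENG, the coreceptor endoglin, was at 43.2, 58.9 and 46.3 FPKM with circ_0005358 and at 26.6, 23.6 and 28.1 FPKM with vector. The groups did not overlap, and the log2 fold change was 0.89 (limma adjusted p = 0.0151), a call lost without vector replicate 1 (0.0581), vector replicate 2 (0.0615) or circ_0005358 replicate 3 (0.0521). TGFBR3, the coreceptor betaglycan, differed by 0.63 on the log2 scale and missed the threshold (adjusted p = 0.054), but passed without circ_0005358 replicate 3 (0.013). ACVR1B, an activin receptor, differed by 0.11 on the log2 scale (adjusted p = 0.858).

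Of 7 other SMADs and signal carriers, TAB1 alone was called. TAB1, a partner of the kinase TAK1, differed by 0.62 on the log2 scale (limma adjusted p = 0.0464), with 5.04, 3.84 and 5.65 FPKM with circ_0005358 and 2.45, 2.86 and 3.01 FPKM with vector. Its groups did not overlap, but the call was lost without any 1 of the libraries other than circ_0005358 replicate 2, with adjusted p between 0.101 and 0.136. ZFYVE9, which brings SMADs to the receptor, and TRIM33, a SMAD partner, had log2 fold changes of -0.13 and -0.17 (adjusted p = 0.273 and 0.796). The partners of SMAD3 were chosen after their values were seen: for SMAD2 the log2 fold change was -0.21 (adjusted p = 0.604), and for SMAD4, on a row joined with ELAC1, it was -0.08 (adjusted p = 0.663).

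Of 11 other inhibitors and repressors tested, 2 fell and 0 rose. BAMBI, a decoy receptor without kinase activity, was at 2.57, 2.32 and 3.04 FPKM with circ_0005358 and at 4.55, 4.69 and 5.35 FPKM with vector. BAMBI fell by 0.69 on the log2 scale (limma adjusted p = 0.0134), a call lost without circ_0005358 replicate 1 (0.0501) or vector replicate 2 (0.0549). NEDD4L, a ubiquitin ligase that removes activated SMADs, was at 1.42, 1.74 and 1.79 FPKM with circ_0005358 and at 3.36, 3.43 and 3.54 FPKM with vector. Its log2 fold change was -0.75 (adjusted p = 0.00465), and the groups were separate. STRAP, an adaptor of the receptor and SMAD7, averaged 82.3 FPKM with circ_0005358 and 92.5 FPKM with vector (adjusted p = 0.162), and TGIF2, a corepressor on a row joined with C20orf24, 21.2 FPKM with circ_0005358 and 22.2 FPKM with vector (adjusted p = 0.811).

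Targets went both ways, with 5 of 22 tested higher and 4 lower, next to 6.41% higher and 4.96% lower over all tested loci. The 5 include ADAM12 and MMP2, which passed the filter only through the circ_0005358 libraries. Of those that fell, SNAI2, the transcription factor Slug, was at 0.492, 1.16 and 1.15 FPKM with circ_0005358 and at 3.34, 3.56 and 3.52 FPKM with vector (log2 fold change -1.23, limma adjusted p = 0.00983). Every circ_0005358 library was below every vector library. BHLHE40, a transcriptional repressor, fell by 0.85 on the log2 scale (adjusted p = 0.00175), and TAGLN, which encodes an actin-binding protein, fell by 0.53 (adjusted p = 0.00708).

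Of the targets that rose, CTGF, a matrix signalling protein that TGF-beta and YAP both induce, was at 5.24, 5.64 and 4.58 FPKM with circ_0005358 and at 2.71, 3.01 and 2.90 FPKM with vector (log2 fold change 0.67, limma adjusted p = 0.00906). TGM2, a crosslinking transglutaminase, rose by 0.57 on the log2 scale (adjusted p = 0.00927), and SERPINE2, a protease inhibitor, by 0.55 (adjusted p = 0.0107). For SERPINE2, leaving out vector replicate 1 ended the call (adjusted p = 0.0506). ADAM12 and MMP2, both metalloproteases, rose by 0.77 and 0.51 on the log2 scale (adjusted p = 0.00373 and 0.0325). These 2 genes passed the filter only through the circ_0005358 libraries, so the filter itself required them to differ, and they add no support to the count of targets that rose. With no filter ADAM12 kept its call (adjusted p = 0.0199) and MMP2, on a row joined with AC007336.3, lost it (adjusted p = 0.123). MMP2 also lost its call at a pseudocount of 0.1 (adjusted p = 0.0533) and without vector replicate 1, 2 or 3 (adjusted p = 0.0639, 0.0861 and 0.0596). At that pseudocount the log2 fold changes were 1.54 for ADAM12 and 1.04 for MMP2.

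Among targets that did not pass, CDKN1A, a cell cycle inhibitor, was at 31.3, 37.5 and 33.1 FPKM with circ_0005358 and at 25.9, 84.2 and 88.5 FPKM with vector. Vector replicate 1 was the lowest library, as it was for TGFBR1, and without it the log2 fold change was -1.32 (limma adjusted p = 0.00827), against -0.76 with all 6 libraries (adjusted p = 0.385). COL5A1, a fibrillar collagen chain, differed by 0.36 on the log2 scale (adjusted p = 0.056) and passed without circ_0005358 replicate 1 (0.0356). JUNB, named after its values were seen, was listed at 0 in 4 of the 6 libraries and at 15.4 FPKM in circ_0005358 replicate 3 and 25.5 FPKM in vector replicate 2, so no fold change is given.

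Of other ligands and antagonists, 2 of 9 were tested and neither passed. FSTL1, a secreted glycoprotein, was at 138, 131 and 134 FPKM with circ_0005358 and at 148, 47.0 and 147 FPKM with vector, where replicate 2 alone was low (adjusted p = 0.626). FSTL3, an activin antagonist, averaged 27.1 FPKM with circ_0005358 and 37.0 FPKM with vector (log2 fold change -0.44, limma adjusted p = 0.0592), and passed without circ_0005358 replicate 2 (0.036).

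**Figure D4:**
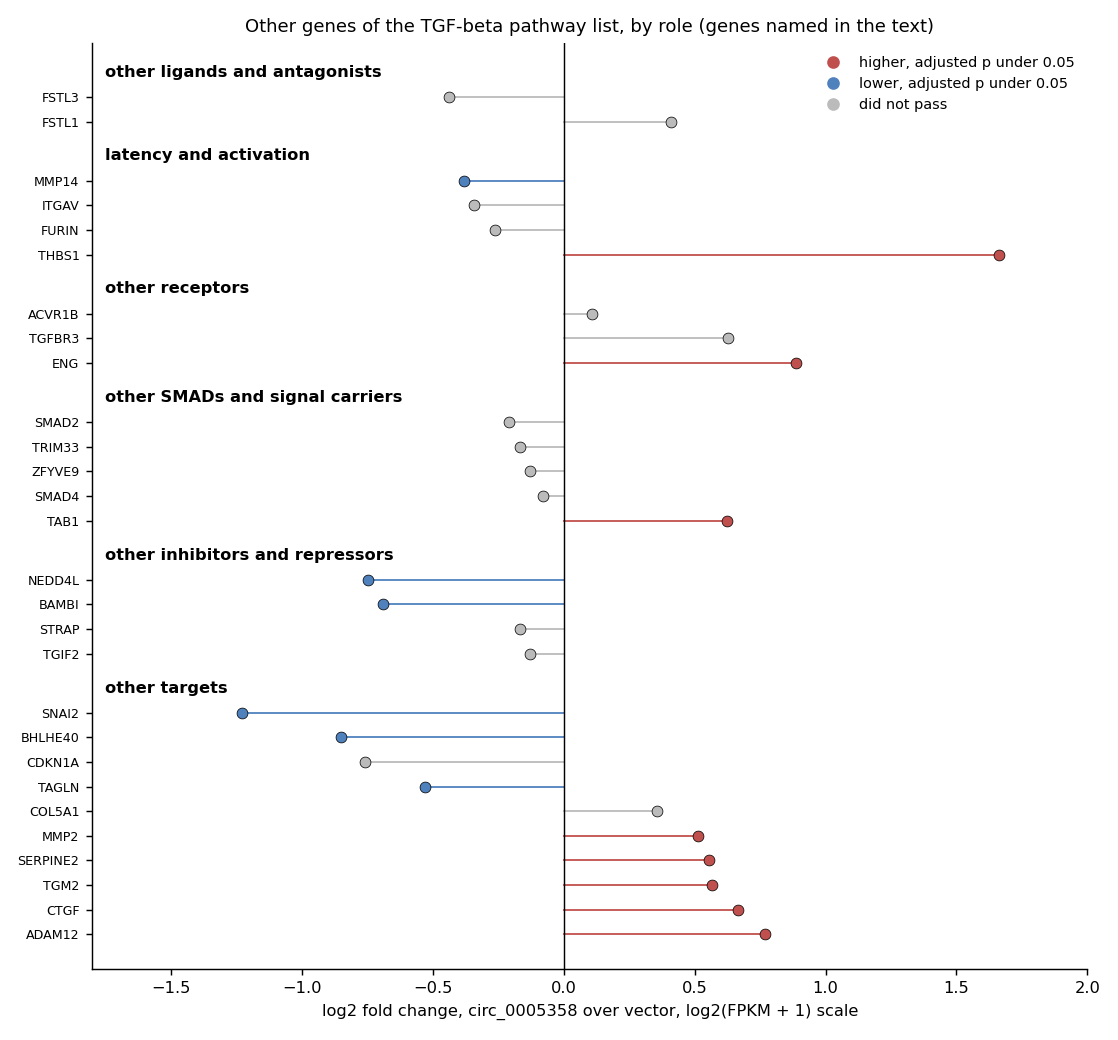
Log2 fold change, circ_0005358 over vector on the log2(FPKM + 1) scale, of the tested genes of the wider pathway list that the text names, grouped by role; red passed as higher, blue as lower, grey did not pass. THBS1 reaches 1.66 and SNAI2 -1.23, and targets lie on both sides of 0.

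The genes whose levels over the 6 libraries were most like those of PMEPA1 included SHROOM3 and EFNA5, with Pearson's r of 0.999 and 0.998 on log2(FPKM + 1) among 8510 protein-coding genes. SHROOM3 was at 1.82, 1.90 and 2.02 FPKM with circ_0005358 and at 3.44, 3.71 and 3.62 FPKM with vector. For TGFB1 the closest were PPP1R26, TELO2 and LONP1, with r of 0.998, 0.998 and 0.997. The 6 libraries form 2 groups that differ for all of these genes, so r describes that difference together with the spread within groups, and 341 genes for PMEPA1 and 406 for TGFB1 had r above 0.95.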

How the data were processed

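PolyA RNA of SiHa cells was measured in 3 libraries with the circ_0005358 plasmid and 3 with vector. The authors deposited 1 table of FPKM values for 35544 loci, 2456 of them at 0 in all libraries. Trimmomatic, HISAT2 and hg19 were used, per the submitters' processing notes; the sources used here do not give versions, the FPKM program, its annotation or its use of strand. The genes and lists were chosen with earlier results of these data known.

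A symbol was matched to rows whose name, split at semicolons, held it, and the row with the highest mean was kept. Loci at 1 FPKM or more in at least 3 libraries (10295) were tested two-sided in limma 3.58.1 (R 4.3.3), with its variance trend, on log2(FPKM + 1), a scale that understates changes of low genes. P-values had Benjamini-Hochberg adjustment over all of these loci, with 0.05 as the threshold. For single genes an exact two-sided permutation test was added. Pathway genes are named if past the threshold or among the 2 most abundant others of a role, and other names are marked as chosen after their values were seen. Some genes that the counts include are not reported here by name. Alternatives were other pseudocounts (0.1 and 0.5), filters, scalings, variance models, thresholds, summed rows, a replicate block and libraries left out. Gene positions are from GENCODE 29 (GRCh38) and promoters from RefSeq (GRCh38.p14), where all 10 symbols matched.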

Additional observations from a re-analysis of the deposited data

How the results depend on the processing

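PMEPA1, TGFBI and LTBP1 kept their direction and their call in every alternative that tested them, 17, 17 and 12 in number. These numbers include summed rows, which could not differ from the main fit because each of the 10 genes matched only 1 row. LTBP1 passed the filter only through the vector libraries, so its calls in alternatives with that filter add no support. With no filter on low values it kept its call (limma adjusted p = 0.0231). LTBP1 was not tested without a vector library (1 library or the pair below), or at 5 FPKM in 3 libraries, where it did not reach the filter.

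The SMAD3 call was lost with no filter (log2 fold change 0.34), after rescaling to the same sum (0.30), after quantile normalization (0.29) and without the variance trend (0.34). When 1 library was left out, log2 fold changes ranged from 0.74 to 0.91 for TGFB1, -1.41 to -0.55 for TGFB2, -1.13 to -0.28 for TGFBR1, 0.12 to 0.49 for TGFBR2, 0.29 to 0.38 for SMAD3, -0.44 to 0.10 for SMAD7 and -0.58 to -0.47 for SKIL. SMAD7 changed sign without vector replicate 1 (0.06) or 2 (0.10).

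Libraries left out 1 at a time gave 485 to 761 calls over all loci, 3 to 5 of the 10 genes and 10 to 13 of the pathway list, next to 1171, 6 and 15. The low of 3 came without vector replicate 2. Without the pair of circ_0005358 replicate 2 and vector replicate 3, calls were 198, 2 and 3; TGFB1 (0.78), SMAD3 (0.33) and SKIL (-0.57) lost theirs, and TGFBR2 changed sign (-0.033). Over all loci 591 were called with no filter and 416 at a threshold of 0.01, where the pathway list had 9, and it had 7 at 5 FPKM in 3 libraries.

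Of pathway genes that did not pass, the sign changed without 1 library for FSTL1 (range -0.13 to 0.68), ITGAV (-0.53 to 0.034), ACVR1B (-0.14 to 0.37), TRIM33 (-0.45 to 0.11), TGIF2 (-0.32 to 0.19) and SMAD2 (-0.34 to 0.016), and without that pair for ITGAV (0.017), TGIF2 (0.24) and SMAD2 (0.033). The causes were not tested.

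Any pairing of the libraries by replicate number was weak. Deviations of same-numbered libraries correlated at 0.0644, 0.0481 and 0.0781, and those of differently numbered libraries at -0.0537 to -0.0106. Each library thus correlated best with its own number, and whether the numbers mark pairs cannot be told from these values. A fit with the number as a block called 259 loci, 3 of the 10 genes and 6 of the pathway list, and TGFB1 (0.82), SMAD3 (0.34) and SKIL (-0.54) then missed the threshold. Without counts, the precision that depth gives to low values such as those of LTBP1 cannot be computed.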
